A study of Mus musculus with 24 samples.

Results

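The Smchd1 effect was measured in mouse embryonic stem (ES) cells with and without Dux. It compares 4 genotypes: ES cells lacking both Smchd1 and Dux (Double KO), cells lacking Dux (Dux KO), cells lacking Smchd1 (Smchd1 KO) and wild type (WT). The quantity reported for each gene is the interaction, (Double KO minus Dux KO) minus (Smchd1 KO minus WT), on the log2(CPM + 0.5) scale, where CPM is reads per 1000000. A negative interaction means that loss of Smchd1 raised the gene less, or lowered it more, without Dux than with it. The 4 genotypes hold 18 of the 24 libraries of the series. Each genotype had 3 replicates. WT and Smchd1 KO had 2 technical runs per replicate, whose CPM were averaged first. All cells were grown without feeders on gelatin in serum with LIF, and ribosomal RNA was depleted before library preparation. The alleles, the clones and the culture days behind the replicates are not given in the sources used here, so p-values measure only the spread between these samples.

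SMCHD1, an SMC-family protein that binds chromatin, keeps genes silent on the inactive X chromosome, at imprinted loci and in repeated gene clusters. DUX is a homeobox transcription factor of the early embryo that switches on the 2-cell-stage programme, the set of genes transcribed when the mouse zygotic genome is first used. In ES cells a small share of cells passes through such a 2-cell-like state, and Dux is needed for it. In bulk RNA, fewer cells in that state and less RNA per cell cannot be told apart.

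Members of 2 of the gene families that carried the interaction, Zscan4 and Usp17, sit in tandem arrays with similar promoters. The windows below run from 250 bases before to 50 bases after the annotated gene start (RefSeq, GRCm38.p6, gene strand) and are shown to let the copies be compared. Capitals mark the motif TATAAA. The entry that the deposited table calls Usp17l5 is Usp17lc in RefSeq.
Zscan4c, chr7:11005495-11005794 (plus strand): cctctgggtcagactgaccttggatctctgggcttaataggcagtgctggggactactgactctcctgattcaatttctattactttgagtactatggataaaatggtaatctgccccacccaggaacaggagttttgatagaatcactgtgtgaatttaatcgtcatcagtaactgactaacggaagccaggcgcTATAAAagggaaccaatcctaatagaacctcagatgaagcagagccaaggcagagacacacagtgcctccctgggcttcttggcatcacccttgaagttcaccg
Zscan4d, chr7:11166099-11166398 (minus strand): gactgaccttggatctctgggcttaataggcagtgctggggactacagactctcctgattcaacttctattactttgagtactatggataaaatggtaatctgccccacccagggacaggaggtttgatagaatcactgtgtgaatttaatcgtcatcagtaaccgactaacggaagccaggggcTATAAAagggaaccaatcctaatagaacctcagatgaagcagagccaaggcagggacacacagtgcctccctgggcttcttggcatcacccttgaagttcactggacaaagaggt
Usp17lc, chr7:103416446-103416745 (plus strand): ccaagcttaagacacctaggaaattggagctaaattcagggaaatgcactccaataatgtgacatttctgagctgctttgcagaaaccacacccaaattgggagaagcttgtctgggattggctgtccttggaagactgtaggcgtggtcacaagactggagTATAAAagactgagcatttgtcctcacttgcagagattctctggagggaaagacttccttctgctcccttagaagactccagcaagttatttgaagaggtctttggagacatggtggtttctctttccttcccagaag
Pairs of the 4 Zscan4 windows available were 95.3% to 99.3% identical over their 266 to 300 aligned bases. Pairs of the 4 Usp17 windows were 87.3% to 96.8% identical over 206 to 284 aligned bases. Each window has 300 bases, and the unaligned bases were not compared. TATAAA was found on the gene strand in 4 of 4 Zscan4 and 3 of 4 Usp17 windows, and in 8.32% of all 32851 windows. With either strand counted, the share of all windows was 13.6%. The match describes these letters only.

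Depth was 14.8 to 17.2 (in units of 1000000 gene reads per library) in Double KO, 13.2 to 15.6 in Dux KO, 11.4 to 52.9 in Smchd1 KO and 16.96 to 74.4 in WT. The median gene had an SD (log2) of 0.31 in Double KO, 0.30 in Dux KO, 0.12 in Smchd1 KO and 0.05 in WT. WT replicates differed from each other by 1.33 to 2.19 times the counting noise, about as little as 2 runs of 1 WT sample (1.59 to 1.89), against 17.5 to 32.3 between Double KO replicates. Whether the WT replicates are separate cultures is not given, and with them counted as 1 sample no gene passed in any of the 3 limma comparisons below (912, 993 and 449 at an unadjusted p under 0.05 in the interaction, in Double KO against Dux KO and in Smchd1 KO against WT). Samples in 3 genotypes had a whole-chromosome shift in their median gene: on chromosome 6 in Double KO replicate 3 (-0.49), which was also shifted on chromosome 1 (0.46), Dux KO replicate 2 (-0.44) and Smchd1 KO replicate 2 (-0.46), and on chromosome 8 in Dux KO replicate 3 (-0.46). The 12 ES cell markers summed to 3446 to 4972 CPM in Double KO, 4630 to 5159 in Dux KO, 5223 to 5731 in Smchd1 KO and 5462 to 5521 in WT.

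The targeted transcripts were read first. Smchd1 had 71.0, 78.2 and 87.9 CPM in Double KO, 174, 191 and 213 in Dux KO, 46.2, 76.5 and 58.5 in Smchd1 KO, and 207, 203 and 207 in WT. The Smchd1-deleted samples lay below all others on both backgrounds. Its level fell by 1.28 on the log2 scale in Double KO against Dux KO (limma adjusted p = 0.0294) and by 1.79 in Smchd1 KO against WT (adjusted p = 0.000395). The first of these calls held in 18 of 28 fits, with an adjusted p of up to 0.246. It was lost with array weights, with no intensity trend, with WT counted as 1 sample, and without Double KO replicate 1, Dux KO replicate 1 or 2, Smchd1 KO replicate 3 or any WT replicate. The interaction of Smchd1 itself was 0.51 ± 0.23 (SE, adjusted p = 0.274). The entry named Dux did not pass the filter on low values, with 0, 0.245 and 0 CPM in Double KO, 0.447, 0 and 0 in Dux KO, 0.833, 0.847 and 0.410 in Smchd1 KO, and 0.0410, 0.113 and 0.141 in WT. The entry Gm10807, called Duxf3 in a newer annotation, had 0.0619, 0.245 and 0.0594 CPM in Double KO, 0.149, 0 and 0 in Dux KO, 0.426, 0.675 and 0.114 in Smchd1 KO, and 0.0522, 0.147 and 0.0660 in WT. Since 1 Dux KO sample and 1 Double KO sample stood above the WT samples in such an entry, these few reads do not check the Dux genotype.

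Of 16200 genes tested, 83 passed the interaction test at a Benjamini-Hochberg adjusted p under 0.05 (0.512%). The interaction was negative for 58 (0.358%) and positive for 25 (0.154%). The 58 fell into 2 kinds. Of them, 39 genes were under 0.5 CPM in every one of the 6 Dux-null samples, called silent here. The other 19 reached 0.5 CPM in at least 1 of these samples, called expressed here. All 25 genes of positive interaction were expressed without Dux in this sense. Among them, Hoxa9 and Hoxa5 were under 0.5 CPM in every Dux KO sample (means of 0.0437 and 0.299 CPM) and reached it only in Double KO. The 39 silent genes were led by the 2-cell-stage families Zscan4, Usp17 and Eif1a-like. The 44 expressed genes included Dpys, Klk1 and Hnf4a on the negative side and Spna1, 4 Hoxa genes, Nes and Dnmt3a on the positive side.

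The number of calls rested on the replicates. Without any 1 of the 3 WT replicates, without Dux KO replicate 2, or with the WT replicates counted as 1 sample, 0 genes passed in limma (1961 to 2248 and 912 at an unadjusted p under 0.05, against 2818 with all samples). On reads recovered from the values, edgeR passed 7 genes and DESeq2 946 (502 negative, 444 positive).

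**Figure D1:**
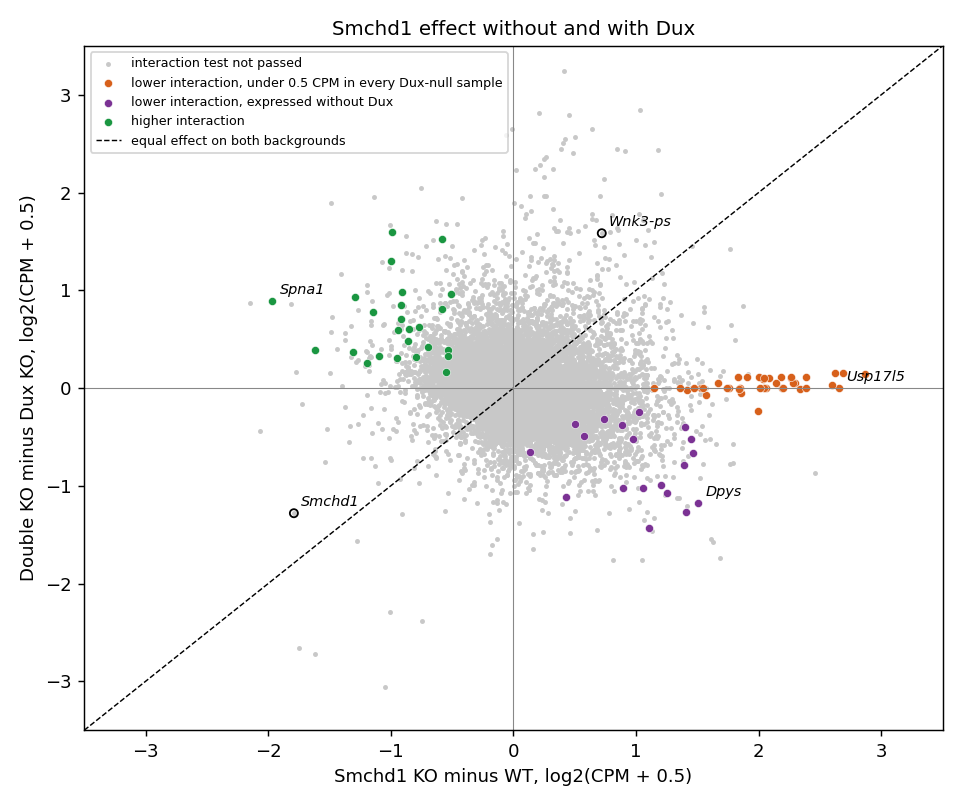
Each point is 1 of the 16200 genes; the x axis is Smchd1 KO minus WT and the y axis Double KO minus Dux KO, both as differences of mean log2(CPM + 0.5) over 3 replicates. The 39 negative genes that are silent without Dux lie along the horizontal zero line, with y values between -0.24 and 0.16, while the other coloured genes lie on opposite sides of zero on the 2 axes; open black circles mark Smchd1 and Wnk3-ps, which passed the test in Double KO against Dux KO.

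The Smchd1 response with Dux present set the scale. Smchd1 KO against WT changed 144 genes (0.889%), of which 105 were higher (0.648%) and 39 lower (0.241%). Double KO against Dux KO changed 2 genes (0.0123%), Smchd1 itself, which was lower, and Wnk3-ps, which was higher (0.00617% each way). These comparisons share no sample, but both came from 1 fit with a spread pooled over the 4 genotypes. The median SD was 0.31 in Double KO and 0.30 in Dux KO, against 0.12 in Smchd1 KO and 0.05 in WT. The counts of 144 and 2 therefore assume an equal spread that the groups did not show. Leaving out Smchd1, 143 genes responded in the presence of Dux. Of them 63 also passed the interaction test with the opposite sign, which is the rule used here for a response that needs Dux: 50 were higher and 13 lower in Smchd1 KO. This count of 63 was 4 with a pseudocount of 0.1, 6 in edgeR and 485 in DESeq2. It was 0 without any 1 WT replicate or Dux KO replicate 2, 3 to 31 without 1 Smchd1 KO replicate, 15, 246 and 89 without Double KO replicate 1, 2 or 3, and 257 and 95 without Dux KO replicate 1 or 3. No gene met the rule for a kept response, that is a change in the same direction past the test in Double KO against Dux KO with no interaction past the test. The remaining 80 genes, 55 higher and 25 lower in Smchd1 KO, were settled by neither test. Because 2 genes in all passed in Double KO against Dux KO, the rule for a kept response had little room to be met. The rule for a response that needs Dux was favoured, since the interaction subtracts the estimate that chose the 143 genes. The count of 63 is therefore not set against the absence of kept responses.

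Of the 63 genes that need Dux by this rule, 39 were under 0.5 CPM in each Dux-null sample. The other 24 were expressed there, 11 of them higher and 13 lower in Smchd1 KO. In 21 of these 24, the Dux KO mean itself lay on the same side of WT as Smchd1 KO. In 21 of them, too, the Double KO mean was nearer to WT than the Dux KO mean was. The choice by interaction favours both counts, so nothing is read from them. By its definition the interaction of these genes contains the Dux KO level as well as the level after loss of Smchd1. The 2 patterns are described in turn.

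The Zscan4 genes encode SCAN-domain zinc finger proteins that mark the 2-cell-like state and act in telomere maintenance. All 5 members in the table passed the filter, and all 5 passed the interaction test on the negative side. Their summed level was 0, 0.0612 and 0.297 CPM in Double KO, 0, 0 and 0 in Dux KO, 60.0, 66.2 and 30.1 in Smchd1 KO, and 9.46, 8.34 and 9.06 in WT. The Smchd1 KO samples were highest, and no Dux-null sample came near the lowest WT sample. Zscan4d had 0, 0 and 0.119 CPM in Double KO, 0, 0 and 0 in Dux KO, 18.4, 22.4 and 9.45 in Smchd1 KO, and 3.65, 3.14 and 3.26 in WT. Its interaction was -1.98 ± 0.38 (SE, adjusted p = 0.0412), made of 0.10 in Double KO against Dux KO and 2.08 in Smchd1 KO against WT. Zscan4c had 0, 0.0612 and 0.0594 CPM in Double KO, 0, 0 and 0 in Dux KO, 18.0, 17.7 and 7.71 in Smchd1 KO, and 2.46, 1.97 and 2.15 in WT (interaction -2.27, adjusted p = 0.0328). Zscan4e had no read in any Dux-null sample, which puts Double KO at least 155-fold below the Smchd1 KO mean of 9.42 CPM when Double KO is set at 3 reads over the group (0.0608 CPM). Zscan4b and Zscan4f had interactions of -1.84 and -2.16. The transcripts share sequence too. Of the 50-base words of Zscan4c 85.5% occur in another gene, of those of Zscan4f 86.8% and of those of Zscan4d 49.6%. Zscan4b and Zscan4e have no such value. Reads may have been split between copies, so the summed level is firmer than a single member's.

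The Usp17 genes, also known as Dub genes, encode deubiquitinating enzymes and lie in an array on chromosome 7. All 5 members in the table passed the interaction test on the negative side. Their summed level was 0.0619, 0.183 and 0.119 CPM in Double KO, 0.0746, 0.0687 and 0 in Dux KO, 33.9, 31.0 and 17.3 in Smchd1 KO, and 4.28, 3.96 and 3.14 in WT. Usp17l5 had no read in any of the 6 Dux-null samples, against 10.3, 10.6 and 5.63 CPM in Smchd1 KO and 1.02, 0.943 and 0.841 in WT. Its interaction was -2.65 ± 0.31 (SE, adjusted p = 0.0181), and its Double KO level was at least 145-fold below that of Smchd1 KO. Dub1a, also without a read there, had 7.25, 5.37 and 2.95 CPM in Smchd1 KO, against 0.702, 0.924 and 0.450 in WT, and an interaction of -2.20. Dub3, Dub1 and Dub2a had interactions of -1.94, -1.89 and -1.85. Their Smchd1 KO and WT samples did not overlap either.

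Eif1a-like genes resemble the translation initiation factor gene Eif1a and are transcribed in the 2-cell embryo. Of the 14 members present, 7 passed the filter, and 6 of these passed the interaction test, all on the negative side. The entry Gm5662 had the lowest interaction of all genes that passed, -2.73 ± 0.39 (SE, adjusted p = 0.0224). It had 0.0619, 0.183 and 0 CPM in Double KO, 0.0746, 0 and 0 in Dux KO, 24.3, 25.8 and 11.7 in Smchd1 KO, and 2.16, 1.99 and 2.58 in WT. The other 5 were Gm8300 (-2.57), BB287469 (-2.46), Gm2016 (-2.15), Gm2035 (-1.94) and Gm4027 (-1.55). Gm2046, with an interaction of -1.56, missed the threshold (adjusted p = 0.0564) although it had no read in any Dux-null sample. Of the words of Gm5662, 81.3% are shared with another gene, of those of Gm4027 94.4%, of Gm2016 77.9% and of Gm8300 26.6%. Reads may have been split between these copies too. A newer annotation gives the names Gm5662 and Gm2016 to these 2 entries the other way round.

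Prame-like genes encode leucine-rich repeat proteins of the oocyte and early embryo. Of the 25 members present, 11 passed the filter, and 3 passed the interaction test on the negative side, namely Gm13119 (-2.35), Gm12794 (-2.07) and Gm13109 (-1.74). Gm12794 had 0, 0.0612 and 0.0594 CPM in Double KO, 0, 0 and 0 in Dux KO, 7.62, 8.61 and 3.82 in Smchd1 KO, and 1.01, 0.935 and 1.07 in WT. The family was split by its level without Dux. Of the 11, 7 were under 0.5 CPM in every Dux-null sample, while Pramef12, Pramef8 and Pramel1 averaged 39.6, 28.9 and 5.97 CPM in Double KO and 36.9, 27.9 and 5.30 CPM in Dux KO. In these 3 the interactions were -0.59, 0.23 and -0.22 and did not pass (adjusted p of 0.231, 0.748 and 0.737).

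Of the other 2-cell-stage genes, 16 of 27 passed the filter and 5 passed the interaction test, all on the negative side: Gm8994 (-2.53), Ubtfl1 (-2.08), Zfp352 (-2.06), A530040E14Rik (-1.79) and Spz1 (-1.36). Zfp352, a zinc finger gene of the 2-cell stage, had no read in any Dux-null sample, against 4.59, 5.33 and 2.06 CPM in Smchd1 KO and 0.634, 0.295 and 0.655 in WT. Gm8994 had 0, 0.122 and 0.0594 CPM in Double KO, 0, 0 and 0 in Dux KO, 25.4, 21.9 and 12.5 in Smchd1 KO, and 2.54, 2.54 and 2.57 in WT. Tdpoz4, a speckle-type POZ protein gene and the only member of its list that passed the filter, had an interaction of -1.24 (adjusted p = 0.0691) with no read without Dux. Smchd1 KO replicate 3 was the lowest of its group in each of these family sums, and it was the lowest Smchd1 KO sample in 37 of the 39 silent genes, against 36.0% of all genes tested.

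Over all 2-cell-stage lists, 81 of 105 symbols were in the table, 45 passed the filter and 24 passed the interaction test, all negative. Of all genes tested, 0.358% passed on the negative side. The median interaction of the 45 was -1.57, beside -0.02 over all genes tested. Their median was 0.03 in Double KO against Dux KO and 1.74 in Smchd1 KO against WT, where the medians of all genes were -0.02 and 0.00. A gene silent without Dux could pass the filter only through the groups that have Dux, so these medians describe members that had to differ. In Smchd1 KO against WT 34 of the 45 passed, all higher, and in Double KO against Dux KO none passed (limma). Leaving out 1 sample moved the count of 24 between 0 and 32. At 0 reads in both Dux-null groups a fold between those groups does not exist, and the interaction is the negative of the Smchd1 effect in WT by construction. The edgeR fit on recovered reads put the interaction of 11 of the 24 above 0 (0.14 to 1.55): A530040E14Rik, BB287469, Dub1, Gm12794, Gm2016, Gm2035, Gm8994, Ubtfl1, Zscan4c, Zscan4d and Zscan4f. All 11 had no read in Dux KO and a few in Double KO, so the direction of their interaction flips with the scale.

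**Figure D2:**
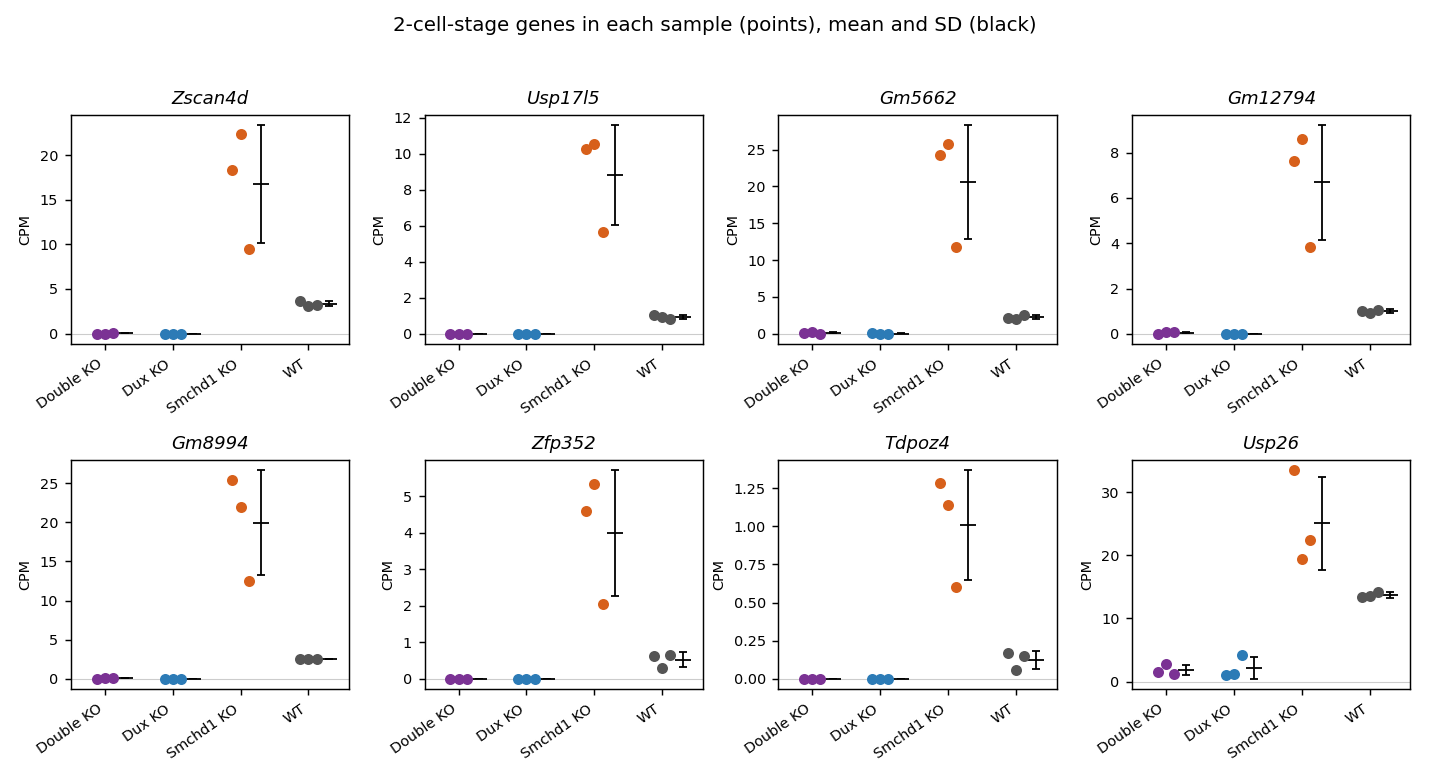
CPM of 8 2-cell-stage genes (y axis, linear, 1 panel per gene) in each sample of Double KO, Dux KO, Smchd1 KO and WT (x axis); points are the 3 replicates, the black bar is the mean and its whiskers the SD. Zscan4d, Usp17l5, Gm5662, Gm12794, Gm8994, Zfp352 and Tdpoz4 lie at or near 0 in all 6 Dux-null samples, while Usp26 keeps 1.04 to 4.13 CPM there.

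Of the 45 list members that passed the filter, 33 were under 0.5 CPM in every Dux-null sample. Among the 16 other 2-cell-stage genes, 8 were. Of these 16, Cml2, Cyp2b23, Ddit4l, Lmx1a, P4ha2, Slc34a2, Usp26 and Zfp951 departed from this picture, and none of them passed the interaction test. Ddit4l averaged 12.1 CPM in Double KO and 18.5 in Dux KO, against 13.3 in WT. Cyp2b23 averaged 0.97, 1.87 and 0.34 CPM in the same order. Usp26, an X-linked deubiquitinase gene, had 1.49, 2.75 and 1.19 CPM in Double KO, 1.04, 1.24 and 4.13 in Dux KO, 33.4, 19.4 and 22.3 in Smchd1 KO, and 13.4, 13.5 and 14.2 in WT. The Dux-null samples were below every sample with Dux. The interaction of Usp26 was -0.87 (95% interval -2.06 to 0.31, adjusted p = 0.425), so its Smchd1 effect was not shown to differ between the backgrounds. Zfp951 varied widely within each knockout genotype, with 6.81, 1.53 and 35.5 CPM in Double KO, 15.2, 9.41 and 0.393 in Dux KO, 5.55, 14.9 and 2.25 in Smchd1 KO, and 1.17, 1.41 and 1.51 in WT (interaction -1.13, adjusted p = 0.735).

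Beside the 24 list members, 15 further genes were silent without Dux and passed on the negative side: 1700013H16Rik, AU015228, Gm12800, Gm4023, Gm4840, Gm4971, Gm5576, Gm5580, Gm5698, Gm5989, Gm6189, Gm6507, Gm7957, Tmem92-ps and Zscan4-ps2. None was in a list, and the last is named as a Zscan4 pseudogene. Tmem92-ps, on chromosome 11, had no read in any Dux-null sample, against 7.66, 9.93 and 3.46 CPM in Smchd1 KO and 0.859, 1.02 and 0.641 in WT (interaction -2.39, adjusted p = 0.0328). Gm6189, on chromosome 1, had 0, 0.0612 and 0 CPM in Double KO, 0, 0 and 0 in Dux KO, 7.09, 5.41 and 4.26 in Smchd1 KO, and 0.560, 0.721 and 0.895 in WT (interaction -2.24, adjusted p = 0.0181). Over all 39 silent genes the interaction ran from -2.73 to -1.15, and in each the 3 Smchd1 KO samples were above the 3 WT samples. The choice by interaction favours that order. Of the 39, 14 had no read in any Dux-null sample. Over the 39, Smchd1 KO means ran from 0.797 to 20.6 CPM and WT means from 0.0541 to 3.35 CPM. No group mean without Dux was above 0.329 CPM. Some of the 39 were also under 0.5 CPM in every WT sample, among them AU015228, Gm6507, Gm7957, Gm4027 and A530040E14Rik. For such genes a level under 0.5 CPM is not particular to Dux-null cells.

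The second pattern concerned genes that reached 0.5 CPM in at least 1 Dux-null sample. In the 19 on the negative side all 3 Smchd1 KO samples were above all 3 WT samples, and the Double KO mean was below the Dux KO mean. The choice by interaction favours both of these orders. Dpys, which encodes the pyrimidine-degrading enzyme dihydropyrimidinase, had 3.59, 9.54 and 11.1 CPM in Double KO, 13.9, 20.3 and 17.7 in Dux KO, 19.8, 37.1 and 25.6 in Smchd1 KO, and 8.66, 9.40 and 9.07 in WT. Both single knockouts stood above WT, and the Double KO samples reached no higher than 11.1 CPM. Its interaction was -2.68 ± 0.49 (SE, adjusted p = 0.0355), from -1.17 in Double KO against Dux KO and 1.51 in Smchd1 KO against WT. Neither contrast passed its own test (adjusted p of 0.274 and 0.0676).

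Trim52, a tripartite-motif gene, had 2.66, 9.17 and 6.42 CPM in Double KO, 14.6, 16.7 and 10.8 in Dux KO, 23.2, 22.4 and 19.12 in Smchd1 KO, and 7.76, 8.35 and 7.27 in WT (interaction -2.67, adjusted p = 0.0328). Klk1, a kallikrein serine protease gene on chromosome 7, had 0.309, 0.917 and 0.297 CPM in Double KO, 1.94, 2.33 and 2.10 in Dux KO, 3.48, 2.57 and 3.92 in Smchd1 KO, and 1.28, 1.42 and 1.09 in WT (interaction -2.54, adjusted p = 0.0181). Here the Double KO samples were below all others. Tmprss13, a membrane serine protease gene, had 0.619, 0.673 and 1.13 CPM in Double KO, 3.06, 1.85 and 1.90 in Dux KO, 0.993, 2.33 and 2.30 in Smchd1 KO, and 0.451, 0.470 and 0.443 in WT (interaction -2.33, adjusted p = 0.0328). Hnf4a, a nuclear receptor of endoderm and liver, had 2.10, 2.20 and 3.21 CPM in Double KO, 3.88, 6.59 and 2.82 in Dux KO, 5.93, 7.70 and 7.23 in Smchd1 KO, and 2.28, 2.12 and 2.16 in WT (interaction -2.12, adjusted p = 0.0331). Dux KO and Double KO overlapped for Hnf4a. It was the only 1 of 19 endoderm genes tested that passed, and the summed level of the 7 endoderm markers ran from 6.83 to 91.5 CPM in Double KO, 14.2 to 71.8 in Dux KO, 20.7 to 100.2 in Smchd1 KO and 36.4 to 38.04 in WT. The part of those cells in the Hnf4a result was not tested.

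The remaining negative genes expressed without Dux were Aff1, Cep170, Cmklr1, Eda2r, Ephx1, Gpc3, Lnpep, Otud6a, RNaseP_nuc, RP23-252I12.4, Serpinb6c, Slc1a1, Spink10 and U6atac. Over the 19 the interaction ran from -2.68 to -0.79, with a median of -1.92. Double KO against Dux KO had a median of -0.66 and Smchd1 KO against WT one of 1.06. In 16 of the 19 the Dux KO mean was above the WT mean, and in 14 every Double KO sample was below every Dux KO sample (3.1% of all genes tested). The interaction that chose these genes favours both counts, so nothing is read from them. None of the 19 passed in Double KO against Dux KO, and 11 passed in Smchd1 KO against WT. Eda2r, an X-linked TNF receptor family gene induced by p53, was the only one of 26 p53 target genes tested that passed. It had 110.3, 166 and 136 CPM in Double KO, 148, 175 and 185 in Dux KO, 189.7, 186 and 201 in Smchd1 KO, and 114, 112 and 118 in WT (interaction -1.06, adjusted p = 0.0391).

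On the positive side all 3 Smchd1 KO samples were below all 3 WT samples in each of the 25 genes, and the Dux KO mean was below the WT mean in all 25. The Double KO mean was above the Dux KO mean in all 25 and nearer to WT than the Dux KO mean in 24. In 18, every Double KO sample was above every Dux KO sample (3.05% of all genes tested). The choice by interaction favours all of these counts, and nothing is read from them. Spna1, which encodes the erythroid alpha spectrin, had the highest interaction of the genes that passed. It had 40.4, 16.7 and 31.0 CPM in Double KO, 13.9, 15.8 and 14.3 in Dux KO, 13.3, 18.99 and 14.7 in Smchd1 KO, and 64.8, 57.7 and 63.6 in WT. Both single knockouts stood at about the same level below WT, and Double KO replicate 2 at 16.7 CPM was close to them. The interaction was 2.86 ± 0.36 (SE, adjusted p = 0.0181), from 0.89 in Double KO against Dux KO and -1.97 in Smchd1 KO against WT.

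Of 19 Hox genes tested, 4 passed the interaction test, all positive and all from the Hoxa cluster on chromosome 6. Over all genes tested 0.154% passed on the positive side. Of the 4, Hoxa3 passed in Smchd1 KO against WT (limma adjusted p = 0.00994). Hoxa5, Hoxa7 and Hoxa9 did not (limma adjusted p of 0.062, 0.072 and 0.186), and none of the 4 passed in Double KO against Dux KO. Hox genes encode homeobox factors of axial patterning, and the Hox clusters are among known SMCHD1-bound regions. Hoxa7 had 2.72, 1.65 and 2.85 CPM in Double KO, 0.597, 0.549 and 0.852 in Dux KO, 0.660, 0.386 and 0.887 in Smchd1 KO, and 1.96, 1.52 and 1.79 in WT (interaction 2.30, adjusted p = 0.0224). Hoxa3 had 2.04, 1.22 and 1.78 CPM in Double KO, 0.671, 0.618 and 0.590 in Dux KO, 0.787, 0.482 and 0.515 in Smchd1 KO, and 2.18, 2.54 and 1.80 in WT (interaction 2.23, adjusted p = 0.0181). In both genes the single knockouts lay below every WT and every Double KO sample. Hoxa9 had 2.72, 0.734 and 0.594 CPM in Double KO, 0, 0 and 0.131 in Dux KO, 0.323, 0.172 and 0.372 in Smchd1 KO, and 1.052, 0.969 and 1.17 in WT (interaction 2.59, adjusted p = 0.0355). Hoxa5 had 0.866, 0.979 and 1.43 CPM in Double KO, 0.224, 0.412 and 0.262 in Dux KO, 0.562, 0.386 and 0.219 in Smchd1 KO, and 1.18, 1.14 and 1.13 in WT (interaction 1.89, adjusted p = 0.0236). Chromosome 6 is shifted in 1 sample of each knockout genotype. With each sample's chromosome median set to 0, the interactions were 2.42 for Hoxa9, 2.13 for Hoxa7, 2.06 for Hoxa3 and 1.72 for Hoxa5, and Hoxa5 no longer passed (adjusted p = 0.0681). The median interaction of the 19 Hox genes was 0.56.

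Nes, which encodes the neural progenitor intermediate filament nestin, had 75.9, 39.0 and 56.1 CPM in Double KO, 12.9, 19.23 and 26.9 in Dux KO, 17.9, 27.6 and 23.2 in Smchd1 KO, and 34.2, 33.5 and 34.4 in WT (interaction 2.10, adjusted p = 0.0367). Here all Double KO samples exceeded the WT samples. It was 1 of 13 neural ectoderm genes tested and the only one that passed. Dnmt3a, a de novo DNA methyltransferase gene, had 288, 212 and 300.3 CPM in Double KO, 146, 126 and 185 in Dux KO, 289, 199.6 and 264 in Smchd1 KO, and 374, 367 and 371 in WT (interaction 1.39, adjusted p = 0.0358). All knockout samples were below WT, and Dux KO was lowest. Of 17 DNA methylation genes tested it was the only one that passed. Cntfr (2.01), a cytokine receptor gene, Cilp2 (1.93), a cartilage matrix gene, Zfp618 (1.77) and Ina (1.67), a neurofilament-type gene, completed the 10 highest.

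The other positive genes included 2310014H01Rik, A930024E05Rik, B3gnt7, Cenpb, Dna2, Dtx3l, Glis2, Gm98, Gnat2, Hist2h4, Mat2a, Mthfd2 and Ppp4r1. Over the 25 the interaction ran from 0.72 to 2.86, with a median of 1.47. Double KO against Dux KO had a median of 0.61 and Smchd1 KO against WT one of -0.92. None of the 25 passed in Double KO against Dux KO, and 13 passed in Smchd1 KO against WT.

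**Figure D3:**
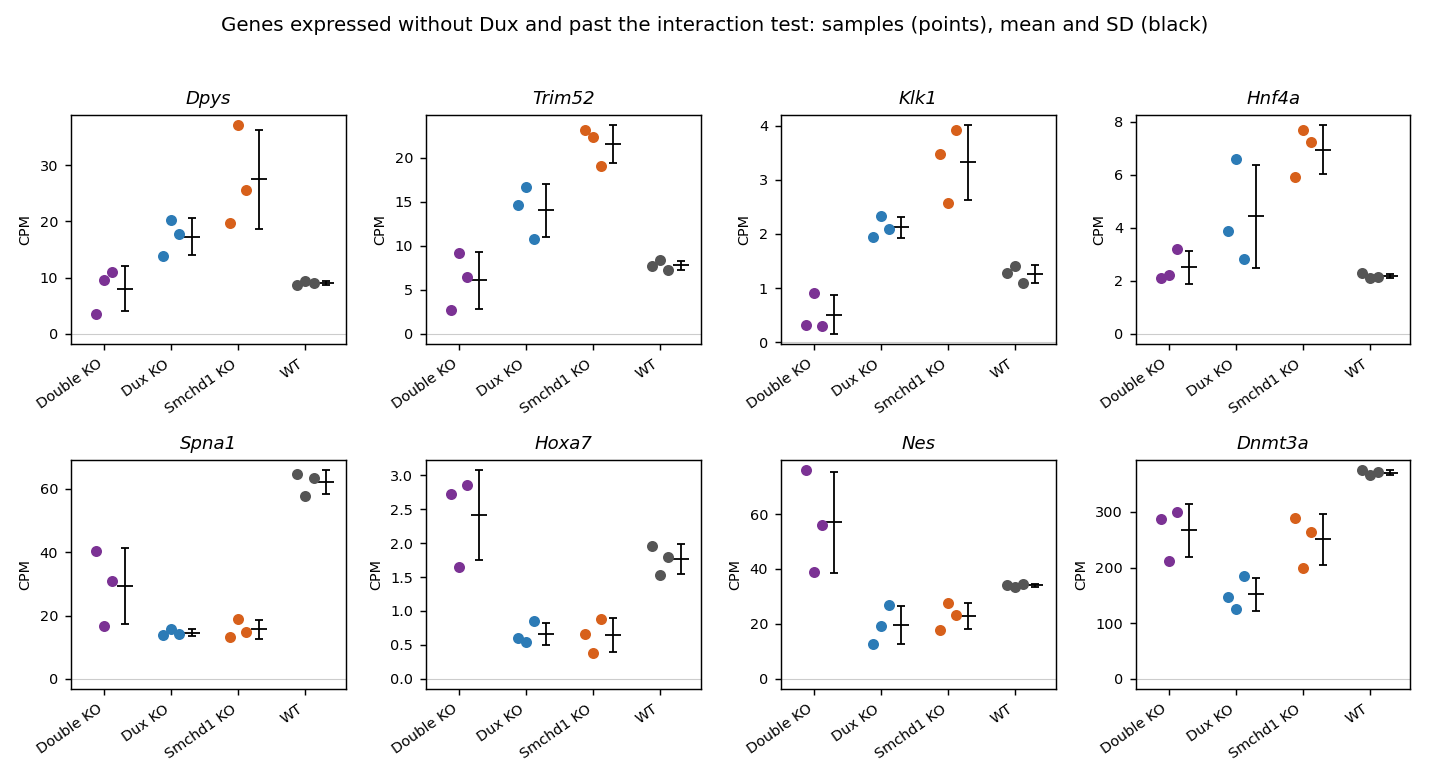
CPM (y axis, linear) in each sample of Double KO, Dux KO, Smchd1 KO and WT (x axis) for 8 genes that Dux-null cells express; points are the 3 replicates, black bars the mean and SD. In Dpys, Trim52, Klk1 and Hnf4a the single knockouts average above WT, and Double KO averages below WT in the first 3 and at 2.51 CPM, against 2.19 in WT, in Hnf4a; in Spna1, Hoxa7, Nes and Dnmt3a the single knockouts average below WT and Double KO averages above Dux KO.

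No response was shown to be independent of Dux, but the genes closest to it can be named. Their choice was made after their values were seen. Of the 80 unsettled genes, 21 were silent without Dux, and 78 had an interaction opposite to the Smchd1 effect at an unadjusted p under 0.05 (limma). The 2 exceptions were Sp140 and Nlrp14. The choice of the 80 by Smchd1 KO against WT favours this count, since the interaction subtracts the same estimate, so nothing is read from it. Over all genes tested, 2818 of 16200 had an interaction at that level in either direction. In 5 genes Double KO differed from Dux KO in the same direction at an unadjusted p under 0.05: Ankrd34a, Nlrp14, Serpine2, Sp140 and Spock1. None of the 80 differed in the opposite direction at that level. Over all genes tested, 1583 of 16200 were at that level in Double KO against Dux KO, in either direction (limma). So 5 of 80 was no more than the share of all genes. In 2 of the 5, Sp140 and Nlrp14, the 95% interval of Double KO against Dux KO included the estimate in the presence of Dux.

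Sp140, a chromatin reader gene of the speckled protein family, had 0.247, 0.428 and 0.713 CPM in Double KO, 0, 0 and 0.0655 in Dux KO, 0.737, 1.07 and 0.591 in Smchd1 KO, and 0.0932, 0.0239 and 0.0660 in WT. The Smchd1-deleted samples were above the others on both backgrounds. The effect was 0.86 in Double KO against Dux KO (unadjusted p = 0.00125, adjusted p = 0.194) and 1.20 in Smchd1 KO against WT (adjusted p = 0.0172), with an interaction of -0.34 (95% interval -0.97 to 0.29). With chromosome medians centred, which bears on the chromosome 1 shift of the highest Double KO sample, the effect in Double KO against Dux KO was 0.82 for Sp140 (limma unadjusted p = 0.000506, adjusted p = 0.160), and without that sample it was 0.68. Sp110, also on chromosome 1, had 0.186, 0.183 and 0.119 CPM in Double KO, 0.0746, 0 and 0 in Dux KO, 1.17, 0.957 and 0.743 in Smchd1 KO, and 0.134, 0.0582 and 0.0354 in WT. Sp110 had an interaction of -0.99 (adjusted p = 0.0819).

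Nlrp14, an NLR family gene of oocytes and spermatogenic cells, had 2.66, 4.53 and 5.29 CPM in Double KO, 1.86, 2.61 and 2.49 in Dux KO, 12.1, 9.73 and 9.51 in Smchd1 KO, and 4.22, 4.30 and 4.38 in WT. Its levels were lower without Dux in both pairs, and its effect was 0.69 in Double KO against Dux KO and 1.18 in Smchd1 KO against WT (interaction -0.49, 95% interval -1.21 to 0.23). Serpine2, a secreted serine protease inhibitor gene, had 38.2, 31.8 and 39.6 CPM in Double KO, 24.2, 22.9 and 30.4 in Dux KO, 31.0, 27.1 and 39.4 in Smchd1 KO, and 14.6, 15.6 and 16.2 in WT. Spock1, a proteoglycan gene, had 1.73, 1.59 and 1.37 CPM in Double KO, 0.820, 1.03 and 0.983 in Dux KO, 1.37, 1.37 and 1.62 in Smchd1 KO, and 0.310, 0.366 and 0.297 in WT. In these genes the Smchd1-deleted samples were the higher on each background without overlap. The effect of Serpine2 was 0.50 in Double KO against Dux KO and 1.03 in Smchd1 KO against WT, that of Spock1 0.51 and 1.24 in the same order, and the interactions of -0.54 and -0.73 did not pass (adjusted p of 0.260 and 0.153). Serpine2 also lies on chromosome 1, and its effect in Double KO against Dux KO was 0.46 with chromosome medians centred and 0.43 without Double KO replicate 3. Ankrd34a went the other way, with 1.61, 0.856 and 1.13 CPM in Double KO, 2.54, 2.13 and 2.29 in Dux KO, 1.36, 2.43 and 1.12 in Smchd1 KO, and 5.88, 4.98 and 5.68 in WT (interaction 0.78, adjusted p = 0.268).

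Wnk3-ps, an X-linked entry that a newer annotation calls Wnk3, a kinase gene of ion transport control, was the only gene beside Smchd1 that passed in Double KO against Dux KO. It had 113, 108 and 126 CPM in Double KO, 47.0, 31.7 and 37.2 in Dux KO, 137, 94.9 and 130.5 in Smchd1 KO, and 73.9, 68.4 and 74.1 in WT. The Smchd1-deleted samples were the higher on both backgrounds, and the Dux KO samples were the lowest. It rose by 1.58 on the log2 scale in Double KO against Dux KO (adjusted p = 0.00719), while Smchd1 KO against WT gave 0.72 (adjusted p = 0.0668) and the interaction was 0.86 (95% interval 0.36 to 1.37, adjusted p = 0.110). Its call in Double KO against Dux KO was lost without Double KO replicate 1, without Dux KO replicate 2 or with WT counted as 1 sample, where the highest adjusted p was 0.0754. Ndn, an imprinted gene named after its values were seen, had 13.2, 12.3 and 16.7 CPM in Double KO, 7.01, 8.38 and 9.37 in Dux KO, 12.8, 12.8 and 11.6 in Smchd1 KO, and 8.03, 7.71 and 8.87 in WT. The groups did not overlap on either background, and the interaction was 0.16 (95% interval -0.36 to 0.68). Neither of its effects, 0.73 and 0.57, passed (adjusted p of 0.192 and 0.151).

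The count of 0 kept responses depended on the samples. DESeq2 on recovered reads gave 11, edgeR 0, quantile normalization 1 and the fit with replicate number as a block 1. Without the 4 samples that have a chromosome shift, which leaves a lone Dux KO sample whose spread is taken from the other groups, it gave 687 kept and 486 that need Dux.

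**Figure D4:**
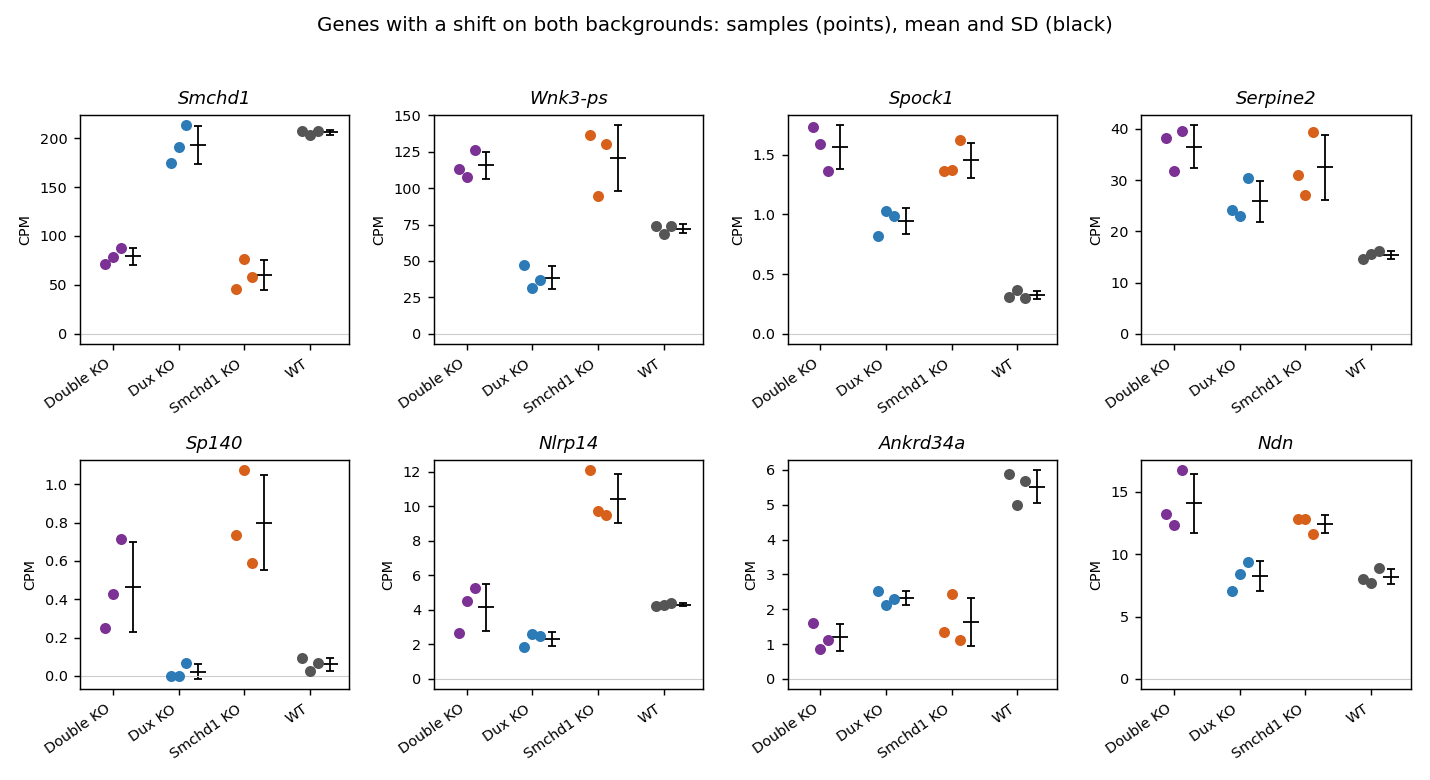
CPM (y axis, linear) in each sample of Double KO, Dux KO, Smchd1 KO and WT (x axis) for Smchd1 and 7 genes in which loss of Smchd1 moved the mean in the same direction on both backgrounds; points are the 3 replicates, black bars the mean and SD. In Wnk3-ps, Spock1, Serpine2, Sp140, Nlrp14 and Ndn the Smchd1-deleted group averages higher in each pair, and in Smchd1 and Ankrd34a lower.

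Among the unsettled genes with a response in the presence of Dux were also Zdbf2, an imprinted gene, Tril and Hspa1a, a heat shock gene, named here after their values were seen. Zdbf2 had 485, 264 and 400.2 CPM in Double KO, 442, 243 and 209 in Dux KO, 110.1, 161 and 115 in Smchd1 KO, and 350.5, 329 and 356 in WT. It fell by 1.44 on the log2 scale in Smchd1 KO against WT (adjusted p = 0.0315), while Double KO and Dux KO overlapped (interaction 1.84, adjusted p = 0.0655). Tril had 1.92, 1.34 and 1.54 CPM in Double KO, 4.85, 1.92 and 1.25 in Dux KO, 0.649, 0.805 and 0.811 in Smchd1 KO, and 5.10, 4.58 and 4.58 in WT (interaction 1.63, adjusted p = 0.119). Hspa1a had 1.49, 1.53 and 0.535 CPM in Double KO, 1.04, 1.10 and 1.64 in Dux KO, 3.81, 2.54 and 2.84 in Smchd1 KO, and 0.571, 0.601 and 0.509 in WT (interaction -1.85, adjusted p = 0.0596). The Dux-null groups overlapped in all 3 genes.

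Other gene groups with a link to SMCHD1 or DUX gave few or no calls in the interaction. None of 54 imprinted genes tested passed, none of 31 regulators of Dux, none of 11 SMCHD1 partner and related genes, none of 8 genes of X-linked families and none of 2 protocadherins. Nor did any of 34 pluripotency genes, 43 germline genes, 15 interferon-response genes or 9 mitochondrially encoded genes. Of 60 clustered histone genes 1 passed, Hist2h4, with 92.9, 68.5 and 126 CPM in Double KO, 89.7, 65.4 and 79.9 in Dux KO, 52.2, 65.8 and 54.1 in Smchd1 KO, and 131, 134 and 128 in WT (interaction 1.45, adjusted p = 0.0398). Over all genes tested 0.512% passed. The medians of the interaction were 0.25 for imprinted genes, 0.21 for regulators of Dux, -0.41 for germline genes, -0.45 for p53 targets and -0.70 for endoderm genes.

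**Figure D5:**
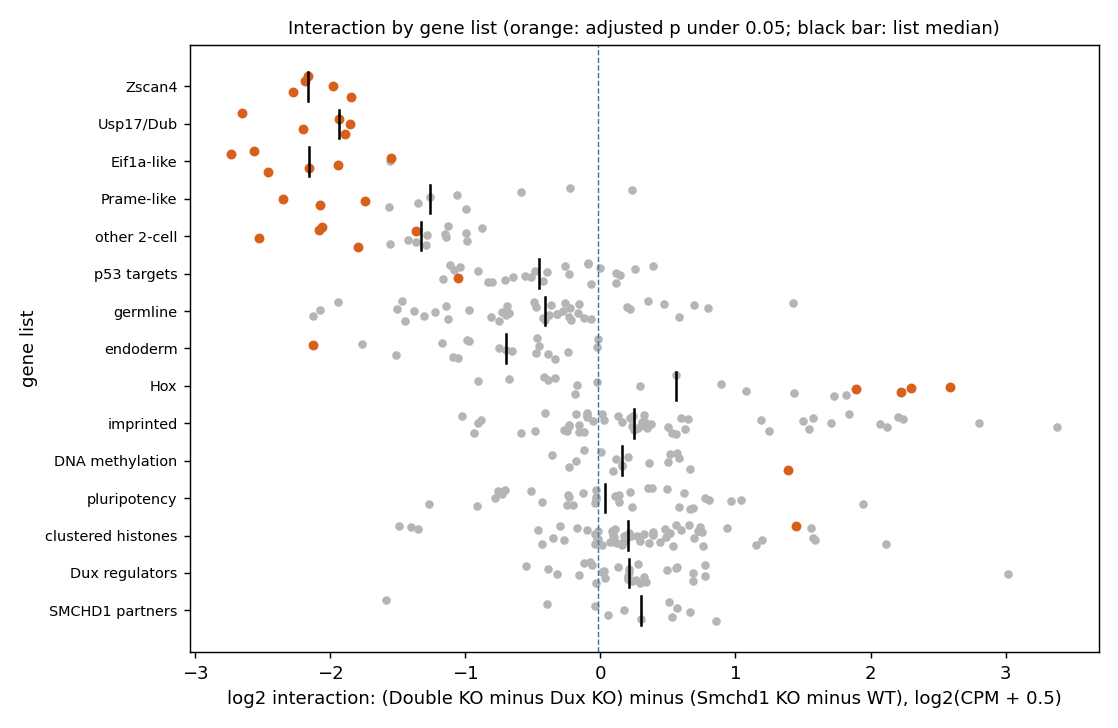
Log2 interaction (x axis) of each tested member of 15 gene lists (y axis, 1 list per line); orange points passed at an adjusted p under 0.05, grey points did not, the black bar is the list median and the dashed line the median of all genes tested, -0.02. All Zscan4 and Usp17 members and 6 of 7 Eif1a-like members are orange on the left; 4 Hox genes are orange on the right.

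Markers of other cell types were read beside these results. The 7 fibroblast markers summed to 25.6 to 50.6 CPM in Double KO, 6.39 to 25.5 in Dux KO, 19.96 to 48.8 in Smchd1 KO and 15.7 to 16.7 in WT, with Dcn and Lum under 0.5 CPM in every sample. The 7 trophectoderm markers summed to 19.13 to 85.0 CPM in Double KO, 8.65 to 26.4 in Dux KO, 13.95 to 16.6 in Smchd1 KO and 13.6 to 14.6 in WT, with Elf5 and Tpbpa under 0.5 CPM. The 5 mesoderm markers summed to 2.94 to 7.18 CPM in Double KO, 2.54 to 3.999 in Dux KO, 3.16 to 4.36 in Smchd1 KO and 3.14 to 4.05 in WT, with Mesp1 under 0.5 CPM. The neural markers, 5 of 6 of which were in the table, summed to 15.4 to 58.2 CPM in Double KO, 22.2 to 63.7 in Dux KO, 44 to 60.0 in Smchd1 KO and 24.5 to 24.9 in WT, with Neurog2 and Dcx under 0.5 CPM. The neural sums of Smchd1 KO and WT did not overlap. None of these markers passed the interaction test (limma), while Hnf4a and Nes, which did, belong to the wider endoderm and neural lists and not to these sets. Their part in the results above was not tested.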

How the data were processed

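RNA-seq of 18 libraries was used, taken as 12 samples of 4 genotypes with 3 numbered replicates each; the WT replicates differed about as little as technical runs and may be 1 culture. The deposited values are a signal per gene, named CPM by the authors: reads divided by an effective library size, with column totals of 906871 to 1054030. Per the submitters' processing notes, Trim Galore, STAR 2.5.1, limma 3.38.2 and build mm9 were used; the counter and the annotation release are not given in the sources used here. Within 0.1 read, 100% of the values under 200 reads were whole multiples of 1 read, which gave the read counts used as alternatives.

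WT and Smchd1 KO runs were averaged as CPM. Genes reaching 0.5 CPM in 3 or more of the 12 samples were kept (16200 of 37310). One limma 3.58.1 fit (R 4.3.3) with an intensity trend on log2(CPM + 0.5) gave all contrasts, two-sided, with Benjamini-Hochberg adjustment over all genes tested and a threshold of 0.05; every adjusted p is limma's unless another tool is named. The pseudocount makes changes of low genes smaller. The script was tested on simulated data. Alternatives included edgeR 4.0.16 and DESeq2 1.42.0 on recovered reads, other pseudocounts and filters, and each replicate left out. Counting the WT replicates as 1 sample was added after seeing the data. Chromosomes came from GENCODE M21 by gene ID (15554 of 16200 genes), whose build is not the authors', and promoters from RefSeq (GRCm38.p6). For a group with 0 reads, a floor of 3 reads over the group was used, and it covers counting error only.

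The text names Smchd1, the entries Dux and Gm10807, and the 2-cell-stage genes that passed the interaction test. It also names some of the other 2-cell-stage genes, the 15 lowest and 10 highest interactions among genes that passed, and genes of other lists. Further genes are said to be chosen after their values were seen. The 2-cell-stage genes that passed the filter and are not named did not pass the interaction test. The comparison, members and lists were chosen with earlier results of these data known. A second table was scaled separately and is not used here, including 3 WT columns that match no sample label. One gene that passed the interaction test is not reported here by name.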

Additional observations from a re-analysis of the deposited data

Results flagged for a closer look

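In 83 genes the effect of losing Smchd1 differed between Dux-null cells and cells with Dux, by the interaction term of the limma fit with all samples. This count was 0 without any 1 WT replicate, without Dux KO replicate 2 or with WT counted as 1 sample, and 7 in edgeR. In edgeR some of the 2-cell-stage genes below also turned to a positive interaction. The values below are log2 interactions, and the tests stand beside each gene above or in the counts. Among the Zscan4 genes the difference was found for Zscan4b (-1.84), Zscan4c (-2.27), Zscan4d (-1.98), Zscan4e (-2.19) and Zscan4f (-2.16). Among the Usp17 genes the difference was found for Usp17l5 (-2.65), Dub1a (-2.20), Dub3 (-1.94), Dub1 (-1.89) and Dub2a (-1.85). Among the Eif1a-like genes the difference was found for Gm5662 (-2.73), Gm8300 (-2.57), BB287469 (-2.46), Gm2016 (-2.15), Gm2035 (-1.94) and Gm4027 (-1.55). Among the Prame-like genes the difference was found for Gm13119 (-2.35), Gm12794 (-2.07) and Gm13109 (-1.74). Among the other 2-cell-stage genes the difference was found for Gm8994 (-2.53), Ubtfl1 (-2.08), Zfp352 (-2.06), A530040E14Rik (-1.79) and Spz1 (-1.36). Among the further genes silent without Dux the difference was found for Tmem92-ps (-2.39), Gm6189 (-2.24), Gm4840 (-2.23) and Gm4971 (-2.22). Among the genes of negative interaction that Dux-null cells express the difference was found for Dpys (-2.68), Trim52 (-2.67), Klk1 (-2.54), Tmprss13 (-2.33), Hnf4a (-2.12) and Eda2r (-1.06). Among the genes of positive interaction the difference was found for Spna1 (2.86), Hoxa9 (2.59), Hoxa7 (2.30), Hoxa3 (2.23), Nes (2.10), Cntfr (2.01), Cilp2 (1.93), Hoxa5 (1.89), Zfp618 (1.77), Ina (1.67) and Dnmt3a (1.39).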

How the results depend on the processing

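The counts of genes that passed, 83 in the interaction, 144 in Smchd1 KO against WT, 2 in Double KO against Dux KO and 24 2-cell-stage genes in the interaction, moved with several settings. The interaction count was 48 with the second technical runs alone, 9 with a pseudocount of 0.1, 11 with a filter of 2 CPM, 7 in edgeR, 946 in DESeq2, 2242 with array weights and 1634 without the 4 samples with a chromosome shift. In Smchd1 KO against WT it was 71 with the 2 CPM filter, 230 in edgeR, 1082 in DESeq2, 9292 with array weights and 2714 without those 4 samples. In Double KO against Dux KO it was 12 with no filter, 220 in DESeq2, 1 with array weights, 1 with no intensity trend, 4 with chromosome medians centred and 3307 without those 4 samples. The 2-cell-stage count was 14 with the second runs, 1 with the pseudocount of 0.1, 4 with the 2 CPM filter, 0 in edgeR (5 at an unadjusted p under 0.05) and 2 in DESeq2. With WT counted as 1 sample all 4 counts were 0 in limma (912, 449, 993 and 36 at an unadjusted p under 0.05). Leaving out 1 replicate gave 0 to 1216, 37 to 387, 0 to 146 and 0 to 32, in the same order. The interaction count was 19, 1216 and 154 without Double KO replicate 1, 2 or 3, 675, 0 and 211 without Dux KO replicate 1, 2 or 3, 4, 4 and 38 without Smchd1 KO replicate 1, 2 or 3, and 0 without any WT replicate. The cause of these moves was not tested.

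The replicate numbers did not pair the samples: correlations of deviations ran from -0.425 to 0.469 for equal numbers and from -0.372 to 0.487 for unequal ones. With the replicate number as a block the counts were 96, 146, 2 and 21.

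Over 45 named genes that passed, 1174 of 1186 values under the alternatives kept their direction, and 531 of them lost the call. The 12 that turned were all in edgeR: A530040E14Rik (0.17), Gm12794 (1.07), Gm8994 (1.47), Zscan4c (1.24), Zscan4d (1.55), Zscan4f (1.15), Dub1 (1.07), Ubtfl1 (0.14), BB287469 (1.25), Gm2016 (1.07), Gm2035 (0.77) and Gm6189 (0.0029). Sp140, which did not pass, turned to 0.49 in edgeR and 0.48 in DESeq2. Depth limits the Dux-null groups, where 3 reads over the group are 0.0608 CPM in Double KO and 0.0694 CPM in Dux KO.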

Other observations

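Genes named here were chosen after their values were seen, and none passed the interaction test. Rian and Mirg, maternally expressed noncoding RNAs of the Dlk1-Dio3 imprinted region, were low in 1 Dux KO sample. Rian had 392, 376 and 379.5 CPM in Double KO, 3.13, 341 and 440.0 in Dux KO, 319, 376 and 396 in Smchd1 KO, and 359, 348 and 361 in WT. Mirg had 48.7, 30.9 and 34.2 CPM in Double KO, 0.597, 21.9 and 30.3 in Dux KO, 16.9, 20.1 and 21.9 in Smchd1 KO, and 36.4, 30.7 and 33.2 in WT. In both genes the low Dux KO sample was replicate 1.

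H19, another imprinted noncoding RNA, had 10.5, 13.3 and 2.44 CPM in Double KO, 2.61, 1.10 and 1.25 in Dux KO, 6.39, 12.7 and 9.36 in Smchd1 KO, and 25.4, 27.7 and 26.5 in WT. All knockout samples were below WT, and the 95% interval of the interaction was 1.90 to 4.87 (limma adjusted p = 0.0564). Cdx2, a trophectoderm factor, had 8.66, 0.550 and 1.60 CPM in Double KO, 0.0746, 0 and 0.721 in Dux KO, 0.190, 0.290 and 0.104 in Smchd1 KO, and 0.994, 0.791 and 1.31 in WT. Its highest value was in Double KO replicate 1. Fgf4, a growth factor of ES cells, had 143, 244 and 146 CPM in Double KO, 271, 384 and 288 in Dux KO, 344, 372 and 335 in Smchd1 KO, and 254, 268 and 261 in WT (interaction -1.27, limma adjusted p = 0.0667).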
